A study of Mus musculus with 18 samples.

Results

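The oxidative phosphorylation genes described here are the nuclear genes whose panel symbols begin with Nduf, Uqcr, Cox4i, Cox5, Cox6, Cox7, Cox8 or Atp5, together with Sdha, Sdhb, Sdhc, Sdhd and Cyc1. This name rule found 82 of the 23930 genes on the panel, and 76 of them were among the 11720 genes that reached 1 CPM (the read count after scaling every library to the same total) in at least 3 libraries and were tested. By name, 40 genes were assigned to complex I, 4 to complex II, 9 to complex III, 16 to complex IV and 13 to complex V. The rule also takes in 7 assembly factors of complex I (Ndufaf genes), Atp5s and Atp5sl, which carry an Atp5 name but are not structural subunits of the enzyme, 7 isoforms known from other tissues and 1 pseudogene. Ndufa4 and Ndufa4l2 carry complex I names but their products are now placed with complex IV.

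Complexes I to IV pass electrons from NADH and succinate to oxygen in the inner mitochondrial membrane and, except for complex II, pump protons, and complex V uses the resulting gradient to make ATP. Hepatocytes depend on this system, and ethanol metabolism in the liver delivers NADH to it. Most subunits are encoded in the nucleus, as are all genes described here, while a few are encoded in mitochondrial DNA and are not analysed here. Transcription of the nuclear subunits is known to be driven by factors such as NRF1, GABP, YY1 and the estrogen-related receptors, with the coactivators PGC-1α and PGC-1β.

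RNA from the livers of Yap fl/fl mice was measured in 18 libraries, 3 in each of 6 groups. Adeno-associated virus (AAV) with the TBG promoter, which acts in hepatocytes, was given at 8 weeks of age: AAV-TBG-GFP to controls, AAV-TBG-Cre to Yap knockouts and AAV-TBG-YAP-P2A-EGFP to YAP overexpressing mice. In units of 1e11 genome copies, the dose was 2 for the control and overexpression viruses and 0.5 for the Cre virus, so knockout and control differ in dose as well as in cargo. After a further 2 weeks and 5 days of acclimation, each genotype received Lieber–DeCarli ethanol diet or pair-fed control diet for 4 weeks, then 5 g/kg ethanol (33% v/v) or maltose-dextrin by gavage, and was killed 9 hours later. All groups carried the floxed alleles and received a virus, and cells other than hepatocytes kept intact Yap.

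The libraries held 4680152 to 5806228 reads, so that 1 read corresponded to 0.172 to 0.214 CPM. The panel reads 1 amplicon per gene, and amplicons differ in efficiency, so levels are compared between libraries and never between genes. Yap1, the targeted gene, was at 51.5 to 66.6 CPM in the 6 control libraries, at 3.34 to 15.1 CPM in the 6 knockout libraries and at 106.4 to 214 CPM in 5 of the 6 overexpression libraries. The library labelled overexpression, pair-fed, replicate 1 had 57.6 CPM of Yap1, within the control range, and results on the overexpression groups are therefore also given without it. Xist, the RNA of the inactive X chromosome, exceeded the Y-linked gene Ddx3y in 5 libraries: pair-fed control replicates 2 and 3 and all 3 pair-fed knockouts. The other 13 libraries had the Y pattern. The labels do not give sex or say that the libraries of a group came from separate mice, so p-values measure the spread between these libraries. In the knockout, ethanol and sex chromosome pattern cannot be told apart from these 6 libraries alone. The overexpression groups and all ethanol-fed groups share 1 pattern.

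The 82 genes together took 1.89% to 2.44% of the reads of a library. Their share was 2.35% ± 0.105 (SD, n = 3) in pair-fed controls and 2.17% ± 0.146 (SD, n = 3) in ethanol-fed controls, with library values that overlapped. In the knockout it was 2.35% ± 0.0848 (SD, n = 3) on the control diet and 1.97% ± 0.0745 (SD, n = 3) after ethanol, and the highest ethanol library, at 2.03%, lay below the lowest pair-fed library, at 2.25%. Overexpression livers had 2.25% ± 0.0653 (SD, n = 3) and 2.15% ± 0.136 (SD, n = 3), again with overlap. By complex, the knockout groups did not overlap for complexes I, II, III and V, and did for complex IV. The control groups did not overlap for complexes I, II and III, and did for complexes IV and V. For complex II in control the margin was small, with 0.185% as the lowest pair-fed and 0.184% as the highest ethanol library. The overexpression groups overlapped for every complex. Without the library labelled overexpression, pair-fed, replicate 1, they no longer did for complex I. There 0.714% was the lowest pair-fed and 0.701% the highest ethanol library. The other complexes still overlapped.

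**Figure D1:**
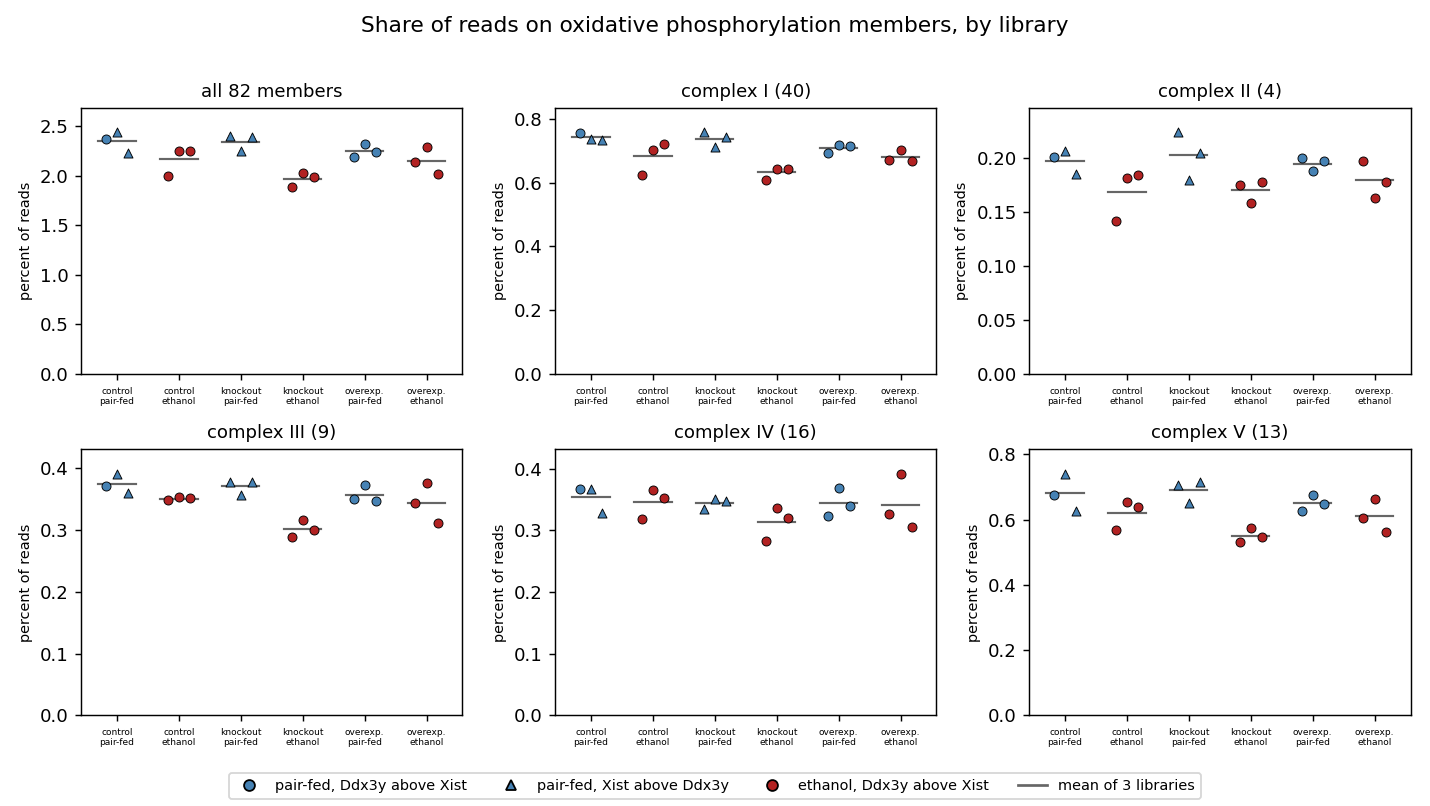
Percent of each library's reads on all 82 genes and on the genes of each complex (y axes, from 0) in the 6 groups (x axis); each point is a library, triangles are libraries with Xist above Ddx3y, and lines are means of 3 libraries. The knockout libraries after ethanol lie between 1.89% and 2.03%, below all 3 pair-fed knockout libraries.

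The members with a mean of at least 10 CPM varied less between libraries, at the median, than all genes above the same floor. For these 69 members the median within-group standard deviation was 0.17 on the log2 scale, against 0.28 for all 6999 genes. The median ratio of the highest to the lowest library was 1.78 against 2.38. The floor does not match members and other genes by level, and the part of level in this difference was not tested. Cox5a and Cox4i1, subunits of complex IV, varied least, each with a ratio of 1.27. Cox4i1 lay between 439.6 and 559.8 CPM. The ratio was largest for 3 members: 298 for Cox7a2, described below, 15.3 for Ndufa4l2 and 11.7 for Cox6b2, the last 2 with means of 1.29 and 0.735 CPM. Among the best-covered genes of each complex, Ndufa4 ranged from 550.2 to 871 CPM, Uqcrc1, a core protein of complex III, from 500.1 to 733 CPM, Cox6a1 from 1008 to 1446 CPM, and Atp5b, the catalytic beta subunit of complex V, from 1314 to 2222 CPM. Pairs of members were weakly correlated in their deviations from the group means over the 18 libraries, with a median Pearson r of 0.11 against 0.04 for pairs among all 6999 genes. These points share libraries, groups and depth.

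The isoforms known from muscle, heart, testis or other tissues gave low values on this panel. Cox4i2, Cox6a2, Cox7b2, Cox8b and Cox8c did not reach the level for testing, and neither did the pseudogene Atp5c1-ps. Cox7a1, the heart and muscle isoform, was read in all 18 libraries, at 0.737 to 5.97 CPM with a mean of 2.78 CPM. Cox6b2, known from testis, was at 0.183 to 2.14 CPM. Skeletal and cardiac muscle markers summed to at most 4.01 CPM in any library. Cox8a, the form found in liver, and Cox6c gave mean values of only 3.86 and 4.93 CPM.

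In control livers, ethanol was followed by lower levels of 3 members in limma's test, and no member was called higher. These were Ndufb10, an accessory subunit of the membrane arm of complex I, Ndufs8, a core iron-sulfur subunit of complex I, and Atp5sl, the gene now named Dmac2. The background was 1.67% of all tested genes called lower and 1.02% called higher, and 3 of 76 is 3.95%. Ndufb10 was at 275, 275 and 241 CPM in the pair-fed libraries and at 153, 176 and 155 CPM after ethanol. Every ethanol library was below every pair-fed library, with a log2 change of -0.71 ± 0.15 (SE; limma, adjusted p = 0.0168). Ndufs8 went from 166, 169 and 138 CPM to 85.9, 97.5 and 102 CPM, a log2 change of -0.72 ± 0.17 (SE; limma, adjusted p = 0.0225). Atp5sl was at 48.3, 46.3 and 55.1 CPM and then at 26.9, 23.6 and 26.7 CPM, a log2 change of -0.93 ± 0.20 (SE; limma, adjusted p = 0.0185). The groups did not overlap for either gene.

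Across the 76 members the median log2 change with ethanol in controls was -0.20, and 58 were below 0 (76.3%), while the median of all tested genes was -0.09 and 58.7% were below 0. All 3 ethanol libraries lay below all 3 pair-fed libraries for 28 members, or 36.8%, against 14.4% of all genes. They lay above all pair-fed libraries for 3 members, or 3.95%, against 7.69% of all genes. These were Uqcr10, at 488, 422 and 421.9 CPM against 502, 540.4 and 590.4 CPM, Uqcrh, the hinge protein of complex III, at 527, 509.6 and 517 against 541, 569 and 568 CPM, and Cox5a, at 239.6, 276 and 274 against 289, 295 and 286 CPM. By complex the medians were -0.23 for complex I, -0.25 for complex II, -0.09 for complex III, 0.017 for complex IV and -0.14 for complex V. Ndufs4, an accessory subunit of complex I, had the smallest p among positive changes, at 0.49 ± 0.20 (SE; limma, adjusted p = 0.20), with overlapping groups. With TMM scaling in place of the library total, which moved the median of all genes from -0.09 to -0.0018, the members' median was -0.11 and none was called. None was called by edgeR either, although the sizes stayed near those above. Quantile scaling and DESeq2 each still called all 3. With TMM, Ndufb10 was at -0.61, Ndufs8 at -0.62 and Atp5sl at -0.83, with adjusted p of 0.0541 to 0.0697 (limma). Without the 2 pair-fed controls with Xist, which leaves only pair-fed control replicate 1, they were at -0.77, -0.80 and -0.89. A term for the sex chromosome pattern gives the same 3 sizes by arithmetic, since that library alone then sets the pair-fed control level. The split of all called genes was 120 higher and 196 lower by library total and 172 higher and 120 lower with TMM. Markers of other cell types were also compared. Lyve1 and Pecam1, markers of sinusoidal endothelium, were called higher with ethanol, at 2.45 ± 0.48 and 0.78 ± 0.20 (SE; limma, adjusted p = 0.0107 and 0.0421), the other 4 of the 6 were below 0, and their summed level went from 247 to 317 CPM up to 312 to 329 CPM. No marker of hepatocytes, Kupffer cells or the other lists was called there. Kupffer cell markers summed to 403 to 444 CPM and then to 269 to 499 CPM, and hepatocyte markers to 38544 to 63891 CPM and then to 48413 to 62761 CPM. No marker of these 3 lists was at 0, and their part in the members' change was not tested.

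In the knockout, 10 members fell with ethanol and none rose, and 10 of 76 is 13.2%, against 5.79% of all tested genes called lower and 4.1% called higher. The count moved with every library and with the scaling: leaving out any 1 of the 6 knockout libraries left 2 to 5 members lower, and TMM scaling left 3. Quantile scaling left 7, and DESeq2 called 11 lower, with 9 of the 10 among them. In complex I the 10 included Ndufs8 and Ndufv1, a core subunit that carries the NADH site, with the accessory subunits Ndufb8 and Ndufb10. In complex III there were Uqcrfs1, the Rieske iron-sulfur protein, and the small subunit Uqcr11. In complex IV there was Cox7b. In complex V there were Atp5c1 (the gamma subunit of the rotor) and Atp5o (the oligomycin sensitivity subunit of the stalk). Atp5sl, which is not a structural subunit, was counted with complex V by name only. The log2 changes of the 10 ran from -0.49 to -0.72, and for all of them the ethanol libraries lay below the pair-fed libraries.

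Ndufs8 stood at 182, 169.9 and 155 CPM in pair-fed knockouts and at 107.9, 92.8 and 107.9 CPM after ethanol, a log2 change of -0.71 ± 0.17 (SE; limma, adjusted p = 0.0112). Uqcr11 was at 365, 407 and 289 CPM against 203, 206 and 232 CPM, a log2 change of -0.71 ± 0.17 (SE; limma, adjusted p = 0.0114). Atp5o was at 307, 309 and 240.2 CPM against 157, 175 and 192 CPM, a log2 change of -0.70 ± 0.17 (SE; limma, adjusted p = 0.0133). These 3 were also called with TMM scaling, by edgeR and when the 6 knockout libraries were compared alone. Each lost the call when certain libraries were left out: Ndufs8 without ethanol-fed replicate 2 (limma, adjusted p = 0.0536), Uqcr11 without pair-fed replicate 2 (0.0623), and Atp5o without pair-fed replicate 2 (0.0586) or ethanol-fed replicate 1 (0.0644). Atp5c1 was at 299, 266 and 301 CPM against 205, 185 and 203 CPM, and Uqcrfs1 at 345, 348 and 354 CPM against 222, 278 and 248 CPM. Ndufv1 was at 211, 222 and 181 CPM against 147, 145 and 142 CPM. With 1 knockout library left out, Atp5c1 kept its call only without pair-fed replicate 2 or ethanol-fed replicate 3. Uqcrfs1 kept it only without ethanol-fed replicate 2, and Atp5sl only without pair-fed replicate 1. Ndufv1 and Ndufb10 kept it only without pair-fed replicate 3. Cox7b was at 504, 516 and 557 CPM against 289, 397 and 386 CPM. For Cox7b, at -0.57 ± 0.18 (SE; limma, adjusted p = 0.0489), and Ndufb8, at -0.52 ± 0.16 (SE; limma, adjusted p = 0.0433), leaving out any 1 of the 6 knockout libraries ended the call.

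**Figure D2:**
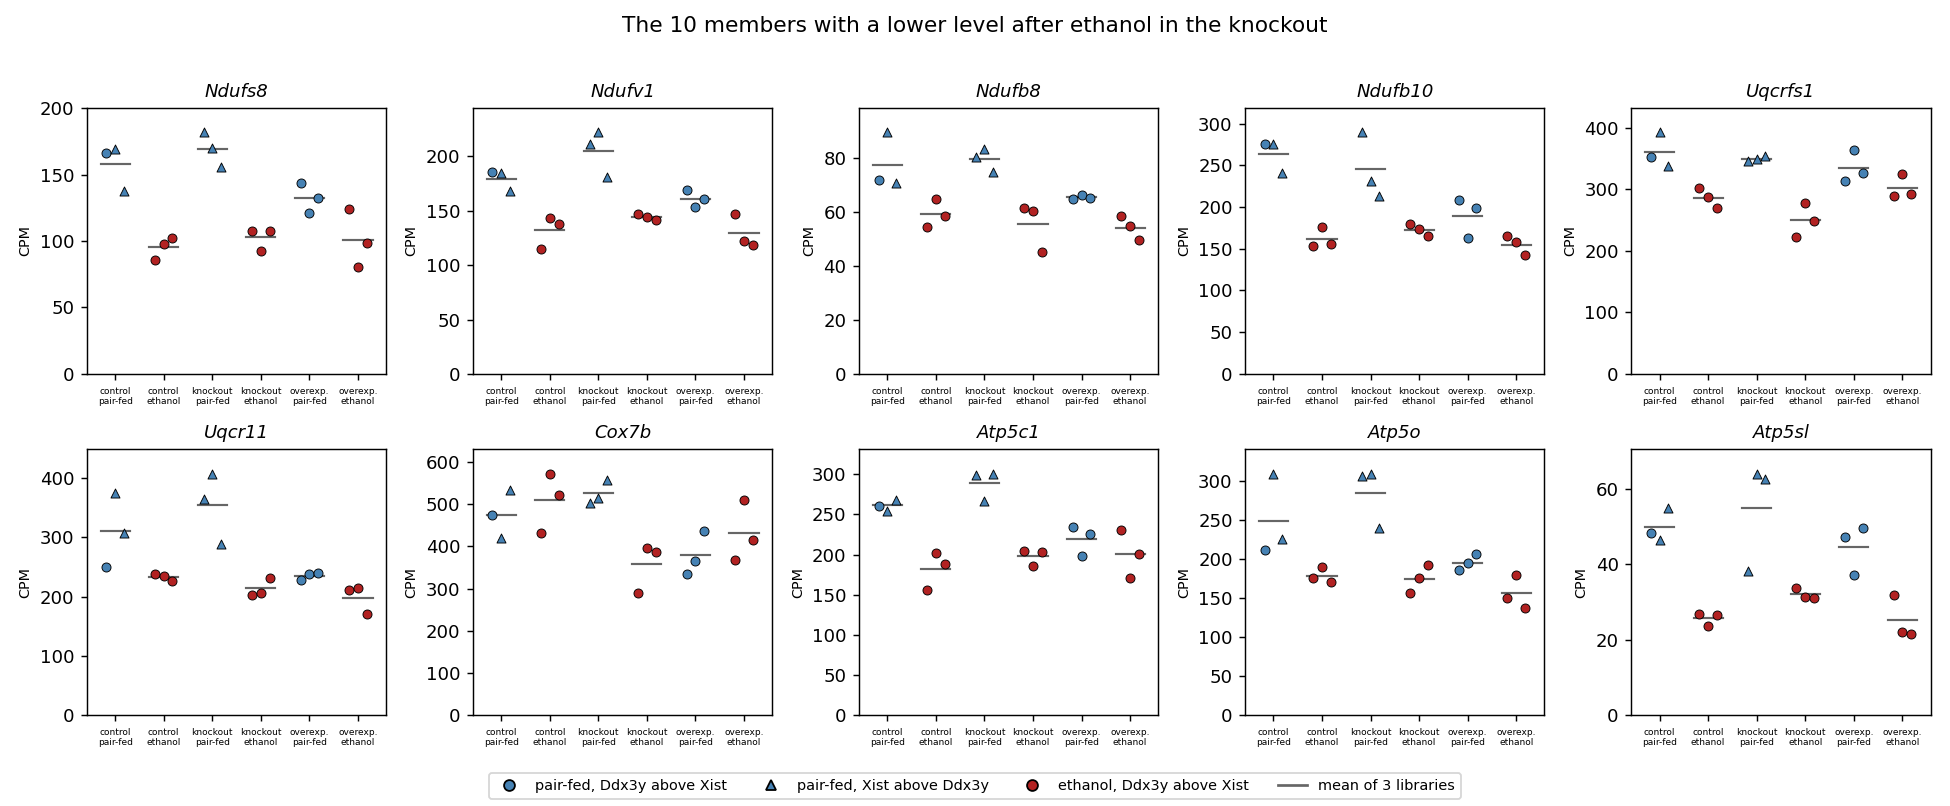
Level in CPM (y axes, from 0) of the 10 members that fell with ethanol in the knockout, by group (x axis); each point is a library, triangles are libraries with Xist above Ddx3y, and lines are means of 3 libraries. In the knockout all 3 ethanol libraries lie below all 3 pair-fed libraries in each panel, and all the pair-fed knockouts are triangles.

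The median change of the 76 members in the knockout was -0.27, with 66 below 0 (86.8%), against a median of -0.05 and 54.4% for all genes. The groups did not overlap, with ethanol lower, for 36 members (47.4%; 16.9% of all genes), and no member had ethanol higher without overlap (11.7% of all genes). Medians by complex were -0.25, -0.29, -0.31, -0.20 and -0.36 for complexes I to V, and all 9 genes of complex III were below 0. With a term for the sex chromosome pattern, estimated from the pair-fed controls, the members' median was -0.27 and 65 were below 0, but no gene of the 11720 was called, with 850 at an unadjusted p under 0.05. In that fit Ndufs8 was at -0.83, Ndufv1 at -0.57 and Cox7b at -0.58, while Uqcr11 was at -0.28 and Atp5o at -0.38. Markers of Kupffer cells moved with the same comparison: 7 of 8 were called lower, their sum went from 438 to 543 CPM down to 155 to 198 CPM, and none was at 0. Hepatocyte markers summed to 58005 to 72452 CPM in pair-fed knockouts and 44321 to 48572 CPM after ethanol, and none was at 0. That sum is led by Alb, at -0.58 (limma, adjusted p = 0.24), and of the 6 markers Alb, Ttr and Asgr1 were below 0 and Apoa1, Cps1 and Hnf4a above, with a median of -0.034 and Ttr alone called (-0.79; limma, adjusted p = 0.0196). Of the 6 sinusoidal endothelium markers, Lyve1 was called higher (1.84 ± 0.48, SE; limma, adjusted p = 0.0198) and 4 were below 0, with sums of 309.6 to 329.7 CPM and then 203 to 352 CPM. The part of these cell types in the members' change was not tested, and in tissue RNA fewer cells of a type and less RNA per cell cannot be told apart.

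**Figure D3:**
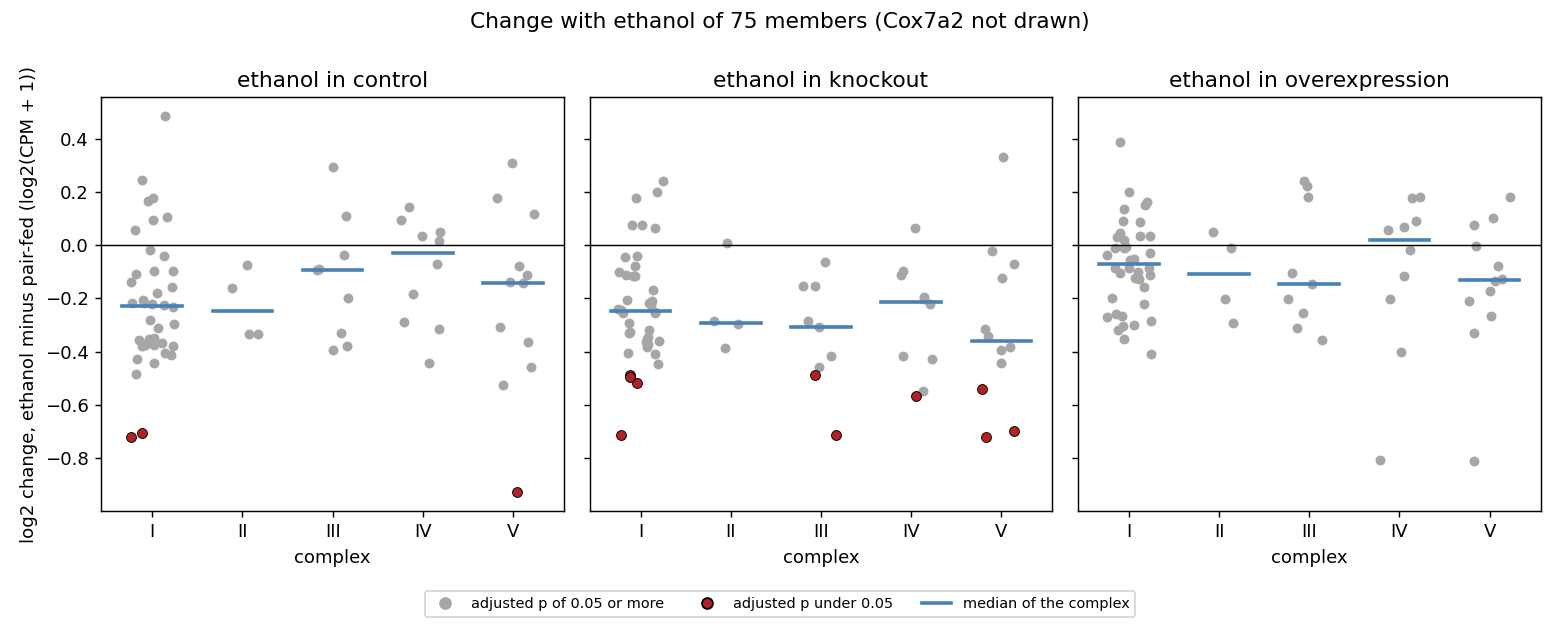
Log2 change with ethanol (y axis, log2(CPM + 1) scale) of 75 members by complex (x axis) in the 3 genotypes; red points have an adjusted p under 0.05 and blue lines are medians of the genes drawn. Of the points in red, 3 are in control and 10 in knockout, all below 0, and there is none in overexpression.

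Promoters of 10 of the 10 members called in either comparison could be matched to the RefSeq promoter table (mouse build GRCm38.p6; 250 bases before to 50 after the start). They were searched on both strands for 5 words: the palindromic NRF1 consensus of 10 letters, CCGGAAG (the ETS word bound by GABP), AAGATGGCG (YY1), TNAAGGTCA (estrogen-related receptors) and GGGCGG (SP1). Of the 10, 3 held a match to 1 of the first 4 words and are printed here for that match, shown in capitals. The windows are chr19:3912725-3913024 on the minus strand for Ndufs8, chr10:80406772-80407071 on the minus strand for Uqcr11 and chr7:25619164-25619463 on the plus strand for Atp5sl (Dmac2).
Ndufs8: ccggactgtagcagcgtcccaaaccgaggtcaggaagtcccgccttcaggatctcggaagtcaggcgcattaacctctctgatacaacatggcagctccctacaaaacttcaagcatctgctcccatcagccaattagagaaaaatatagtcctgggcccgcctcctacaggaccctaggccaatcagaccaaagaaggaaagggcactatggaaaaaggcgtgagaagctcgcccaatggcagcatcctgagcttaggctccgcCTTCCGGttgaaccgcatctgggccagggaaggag
Uqcr11: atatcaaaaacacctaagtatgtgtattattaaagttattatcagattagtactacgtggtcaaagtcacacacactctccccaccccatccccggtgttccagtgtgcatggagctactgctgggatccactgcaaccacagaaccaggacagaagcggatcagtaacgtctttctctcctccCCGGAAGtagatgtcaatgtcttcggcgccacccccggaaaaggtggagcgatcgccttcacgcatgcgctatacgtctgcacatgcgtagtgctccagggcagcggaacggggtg
Atp5sl: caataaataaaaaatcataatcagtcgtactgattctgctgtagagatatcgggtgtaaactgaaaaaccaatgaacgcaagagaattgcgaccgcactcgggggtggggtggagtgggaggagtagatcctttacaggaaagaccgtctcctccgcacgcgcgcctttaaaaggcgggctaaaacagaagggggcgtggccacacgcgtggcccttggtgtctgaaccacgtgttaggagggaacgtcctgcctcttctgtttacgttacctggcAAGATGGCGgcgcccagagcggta
In Ndufs8 and Uqcr11 the capitals mark the ETS word, in Ndufs8 on the opposite strand, and in Atp5sl they mark the YY1 word.

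Over the 62 tested members with a promoter in the table, the NRF1 word was in 9.68%, against 2.04% of the 8949 promoters of tested genes and 0.977% of all 27025 promoters. The YY1 word was in 11.3% of members, 3.32% of tested genes and 1.49% of all promoters. For the ETS word the shares were 22.6%, 17.7% and 9.12%, for the receptor word 3.23%, 0.715% and 1.26%, and for the SP1 word 43.5%, 62.9% and 35.9%. Among the 10 called members, 0 promoters held the NRF1 or the receptor word, 2 the ETS word, 1 the YY1 word and 1 the SP1 word. These matches describe letters in a window and show no binding.

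In the overexpression groups no member passed the test for ethanol, while 0.751% of all tested genes were called lower and 0.401% higher. At an unadjusted p under 0.05, 6 members were lower and none higher, against 9.67% and 4.87% of all genes. In 17 members (22.4%; 14.6% of all genes) the ethanol libraries lay below all pair-fed libraries, and in 2 (2.63%; 7.83%) above them. Atp5sl came nearest, at 47.3, 37.2 and 49.7 CPM on the control diet and 32.0, 22.1 and 21.7 CPM after ethanol, without overlap (log2 change -0.81 ± 0.20, SE; limma, adjusted p = 0.0565). It was called when genes under 10 CPM were left out (adjusted p = 0.0424, limma) and without ethanol-fed replicate 1 (limma, adjusted p = 0.0365). Ndufs8 was at 144, 121 and 132.4 CPM and then at 124, 80.1 and 98.2 CPM, with overlap and a log2 change of -0.41 ± 0.17 (SE; limma, adjusted p = 0.25). Ndufa10, an accessory subunit of complex I, was at -0.35 ± 0.15 (SE; limma, adjusted p = 0.29). The median over the 76 members was -0.09 and that of all genes -0.07, and with TMM scaling the 2 medians were -0.0044 and 0.0074. Without the library labelled overexpression, pair-fed, replicate 1, the members' median was -0.09 and that of all genes -0.12, and again none was called. The ethanol libraries then lay below the pair-fed ones for 21 members (27.6%; 23.1% of all genes) and above for 2 (2.63%; 9.26%).

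The log2 change with ethanol was below 0 in all 3 genotypes for 45 of the 76 members (59.2%), against 30.7% of all tested genes. For 12 members, or 15.8%, all ethanol libraries lay below all pair-fed libraries in each of the 3 genotypes, against 2.53% of all genes. They were Ndufa10, Ndufb6, Ndufb8 and Ndufv1 of complex I, Sdhb of complex II, and Cyc1, Uqcr11 and Uqcrc2 of complex III. The others were Atp5b, Atp5d and Atp5o of complex V, and Atp5sl, counted there by name only. This count rests on the scaling: with TMM factors it was 0 members, or 0%, against 1.17% of all genes. By genotype, TMM left 14 members lower without overlap in control (18.4%; 10.5% of all genes), 25 in the knockout (32.9%; 14.1%) and 4 in overexpression (5.26%; 10.3%). Without the library labelled overexpression, pair-fed, replicate 1, the count in all 3 genotypes by library total was 13 members (17.1%; 3.17% of all genes). In control and knockout all libraries with Xist were pair-fed, and the part of that pattern in these counts was not tested. Of the 12 members, Uqcr11, Uqcrc2 and Atp5o lay higher in all 5 libraries with Xist than in the 13 others.

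**Figure D4:**
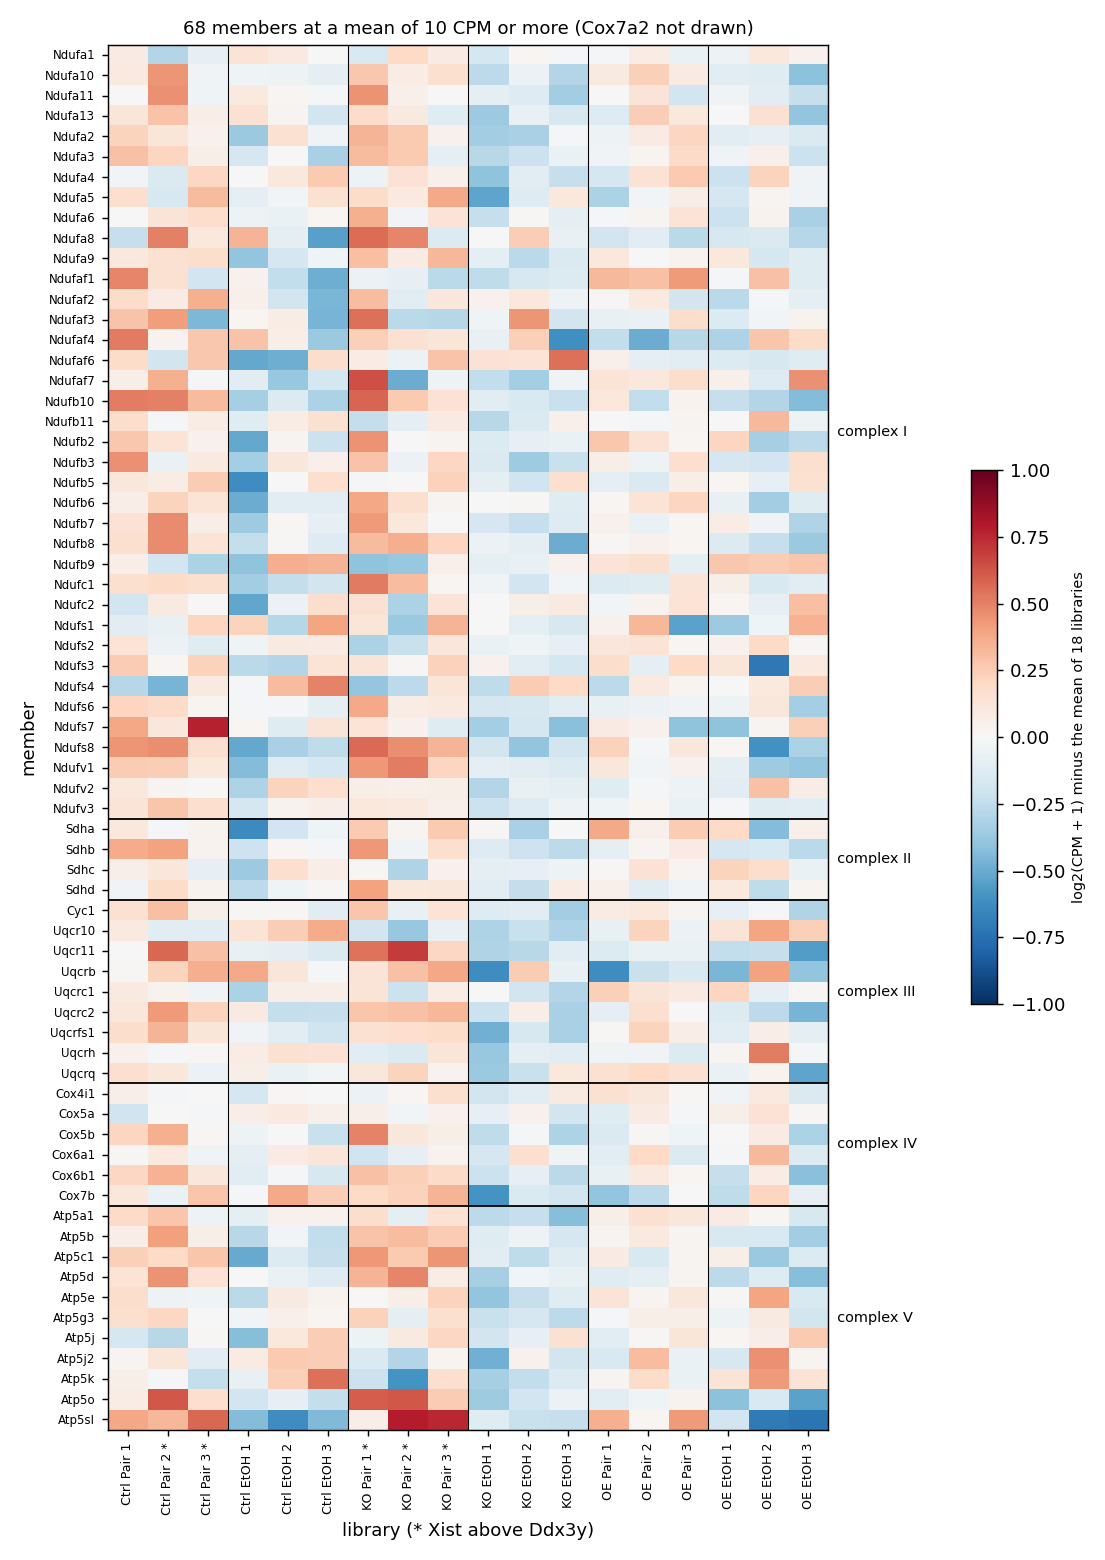
Log2(CPM + 1) of 68 members (rows, by complex) in the 18 libraries (columns), each as the difference from the gene's mean over all libraries, from blue (-1) to red (1). In the ethanol-fed knockout columns 53 to 59 of the 68 members lie below their mean, against 8 to 26 in the pair-fed control and knockout columns.

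Complex II, the succinate dehydrogenase that also serves the tricarboxylic acid cycle, had no gene called in any comparison. Sdhb, its iron-sulfur subunit, was at 552, 565 and 437 CPM in pair-fed and 369.8, 432 and 424 CPM in ethanol-fed controls (log2 change -0.34 ± 0.15, SE), and at 577, 418 and 477 against 390.3, 369.6 and 356 CPM in the knockout (-0.39 ± 0.15, SE). Sdha, the flavoprotein, was at 596, 550.3 and 568 against 357, 485 and 536 CPM in control and 663, 564 and 663 against 559, 443 and 552 CPM in the knockout. In both cases the groups of Sdha did not overlap. The membrane anchors Sdhc and Sdhd overlapped in control, and only Sdhd separated in the knockout, at 585, 477 and 480.0 against 411, 376 and 466 CPM. In overexpression Sdhb alone of the 4 separated, at 402, 436 and 453 against 381, 385 and 355 CPM. Of all genes, 14.4% separated in this direction in control, 16.9% in the knockout and 14.6% in overexpression. Some margins in complex II were small, such as 564 against 559 CPM for Sdha in the knockout.

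Comparing genotypes on the same diet gave no called member in limma; DESeq2 called 1, Uqcr10, between ethanol-fed knockout and control. Between pair-fed knockout and control the members' median was 0.011, beside 0.019 for all genes, with 0.00853% of genes called lower and 0% higher. The smallest p belonged to Cox7a2, described below, and to Ndufs7, a core subunit of complex I, at -0.40 ± 0.20 (SE; limma, adjusted p = 0.999). Between ethanol-fed knockout and control, where all libraries had the Y pattern, the median was -0.10 with 51 below 0 (67.1%), against 0.06 and 42.6% for all genes, and 0.0171% of genes were called lower and 0% higher. All 9 genes of complex III were below 0 there. All ethanol-fed knockout libraries lay below all ethanol-fed control libraries for 14 members (18.4%, against 5.21% of all genes). They lay above them for 2 members (2.63%, against 8.23% of all genes). Uqcr10, a small subunit of complex III, was at 502, 540.4 and 590.4 CPM in ethanol-fed controls and 368, 391.9 and 368 CPM in ethanol-fed knockouts, which did not overlap (-0.53 ± 0.15, SE; limma, adjusted p = 0.34). DESeq2 put it at -0.59 (adjusted p = 0.0122), edgeR at -0.59 (adjusted p = 0.28). Cox7b was at 432, 573 and 522 against 289, 397 and 386 CPM, also without overlap (-0.51 ± 0.18, SE; limma, adjusted p = 0.45). Ndufaf6, an assembly factor of complex I, was at 0.56 ± 0.21 (SE; limma, adjusted p = 0.53).

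Between pair-fed overexpression and control the members' median was -0.09, beside -0.016 for all genes, with 0.0853% of genes called lower and 0.0597% higher. In 19 members all overexpression libraries lay below all control libraries (25%; 7.57% of all genes), and in none above (6.27% of all genes). Ndufb10 was at 208, 163 and 198 CPM against 275, 275 and 241 CPM in the control (-0.48 ± 0.15, SE; limma, adjusted p = 0.31). Ndufaf4, an assembly factor, was at 47.7, 39.8 and 46.8 against 81.6, 58.0 and 68.7 CPM (-0.61 ± 0.22, SE; limma, adjusted p = 0.42). Without the library labelled replicate 1 the members' median was still -0.09, with 22 members below without overlap (28.9%; 9.68% of all genes) and 2 above (2.63%; 12.4%). On ethanol, overexpression and control differed by a median of -0.012 over the members and -0.00023 over all genes, with 0.0341% of genes called lower and 0.0683% higher. The sign of that median changed with single libraries, at 0.031 without ethanol-fed control replicate 2, 0.026 without ethanol-fed overexpression replicate 3 and -0.058 without ethanol-fed overexpression replicate 2. The Xist pattern differs between these pair-fed groups and not between the ethanol-fed ones. These comparisons share their control libraries with the ethanol comparison in controls.

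Whether ethanol acted differently in knockout or overexpression than in control was tested by the interaction terms, and no gene of the 11720 was called in either (0%), with 666 and 847 genes at an unadjusted p under 0.05 in limma. DESeq2 and the other settings called at most 54 and 59 genes, none of them a member. The members' median difference was -0.09 for the knockout and 0.10 for overexpression, beside 0.039 and 0.023 for all genes. The first ran from -0.13 to -0.044 when 1 library was left out, nearest to 0 without pair-fed control replicate 3 or pair-fed knockout replicate 1. The second was 0.079, beside -0.030 for all genes, without the library labelled overexpression, pair-fed, replicate 1. Cox7b had the smallest p in the first, at -0.66 ± 0.25 (SE; limma, adjusted p = 0.86), and Ndufaf4 in the second, at 0.67 ± 0.32 (SE; limma, adjusted p = 0.68). The 10 falls in the knockout, 3 in control and 0 in overexpression are therefore not shown to differ.

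Cox7a2, the liver isoform of a small complex IV subunit, was the 1 member at 10 CPM or more whose highest library exceeded its lowest by over 5-fold, against 639 of all 6999 genes at that level. Its level was 334, 207 and 5.16 CPM in pair-fed controls and 1.12, 208 and 1.92 CPM in pair-fed knockouts. In the other 12 libraries it was 121 to 329 CPM. The 3 low libraries were all among the 5 with Xist, and the other 2 of those, at 207 and 208 CPM, were not low. The highest and lowest of the 18 libraries differed 298-fold. The change with ethanol in the knockout, at 3.96 ± 1.31 (SE; limma, adjusted p = 0.0609), rests on those low libraries, and without pair-fed knockout replicate 2 it was called higher. Leaving Cox7a2 out of the members changed no count of the other members called in the ethanol comparisons.

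Members were also compared by sex chromosome pattern. All 5 libraries with Xist lay above all 13 others for Atp5o, Uqcr11 and Uqcrc2, which is 3.95% of members against 1.24% of all genes, and no member had them all below (0.853% of all genes). Diet enters that comparison, since all 5 were pair-fed. Within the 9 pair-fed libraries genotype enters: the 5 with Xist are 2 controls and 3 knockouts, and the other 4 are 1 control and the 3 of the overexpression group. There the 5 with Xist lay above the other 4 for the same 3 genes and Uqcrb (5.26%; 3.87% of all genes). They lay below them for Cox7a2, Ndufaf1 and Uqcr10 (3.95%; 4.3% of all genes). Both shares are close to those of all genes and show nothing particular to the members. Among pair-fed controls, Uqcr11 was at 250.3 CPM in the library with the Y pattern and at 374 and 306 CPM in the 2 with Xist, and Atp5o was at 212 against 309 and 225 CPM.

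**Figure D5:**
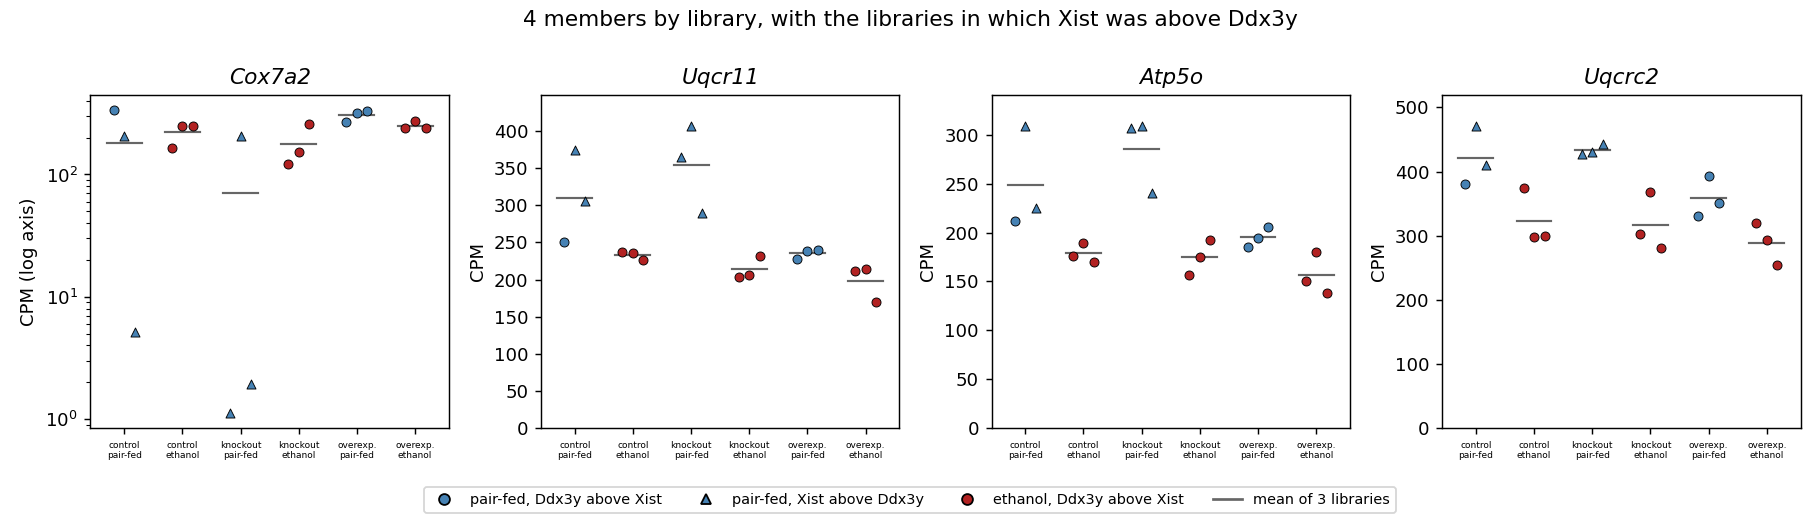
Level in CPM (y axes; log axis for Cox7a2, from 0 for the others) of 4 members by group (x axis); each point is a library, triangles are libraries with Xist above Ddx3y, and lines are means of 3 libraries. Cox7a2 is at 1.12, 1.92 and 5.16 CPM in 3 of the 5 triangles, and Uqcr11, Atp5o and Uqcrc2 are higher in all 5 triangles than in the 13 circles.

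Genes that regulate or assist the respiratory chain were read from lists chosen alongside the members. Their counts are read against all tested genes, of which 1.67% were called lower, 1.02% higher and 58.7% lay below 0 in control, and 5.79%, 4.1% and 54.4% in the knockout. In overexpression these shares were 0.751%, 0.401% and 57.5%. Of 12 regulators of mitochondrial biogenesis tested, 1 (8.33%) was called in each ethanol comparison, always lower. Below 0 were 7 of the 12 (58.3%) in control, 4 (33.3%) in the knockout and 9 (75%) in overexpression. Ppargc1b, which encodes PGC-1β, was at 11.6, 13.9 and 8.03 CPM in pair-fed and 2.49, 3.09 and 4.51 CPM in ethanol-fed controls, a log2 change of -1.47 ± 0.26 (SE; limma, adjusted p = 0.00766). Without the 2 pair-fed controls with Xist, which leaves only pair-fed control replicate 1, it was at -1.55. In overexpression it went from 15.3, 14.3 and 17.2 CPM to 3.79, 4.97 and 2.76 CPM, a log2 change of -1.80 ± 0.26 (SE; limma, adjusted p = 0.00289), and -1.81 without the library labelled pair-fed replicate 1 (limma, adjusted p = 0.0176). In the knockout it was at 10.3, 9.40 and 8.19 CPM and then at 8.97, 5.57 and 9.06 CPM, and was not called, and the difference between genotypes passed the test for no gene. There Esrra, an estrogen-related receptor, fell, from 56.0, 63.5 and 56.4 CPM to 36.6, 43.4 and 35.9 CPM (-0.59 ± 0.16, SE; limma, adjusted p = 0.0277).

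Of 18 assembly factors for complexes I, II, III and V, 17 (94.4%) were below 0 in control (median -0.52) and 17 in the knockout (median -0.40), with 1 (5.56%) called in each. Ecsit, a complex I assembly factor, fell in control from 48.1, 48.9 and 40.9 CPM to 23.2, 22.2 and 26.0 CPM, and Uqcc3, for complex III, fell in the knockout by 0.66 on the log2 scale. Of 15 complex IV assembly factors, Cox19 (6.67%) rose in both, by 0.92 ± 0.23 (SE; limma, adjusted p = 0.0373) in control and 1.22 ± 0.23 (SE; limma, adjusted p = 0.0030) in the knockout. None was called lower, with 9 of the 15 (60%) below 0 in control and 7 (46.7%) in the knockout. With the sex chromosome term Cox19 was at 0.62 in control and 0.76 in the knockout, where that term left no gene called. Among 13 electron carriers and coenzyme Q genes, Etfa and Coq9 (15.4%) fell in the knockout and none was called in control. Of 12 tricarboxylic acid cycle genes, Fh1 rose and Idh3b fell in the knockout (8.33% each). With TMM scaling Etfa and Fh1 were still called there (limma, adjusted p = 0.0325 and 0.0082). Uqcc3, Coq9 and Idh3b were not (limma, adjusted p = 0.0822, 0.0630 and 0.0504). In the knockout Fh1 was at 1.01 in the main fit and at 0.42 with the sex chromosome term, while Etfa was at -0.64 in both. Of 69 mitochondrial ribosomal proteins, 1 (1.45%) was called lower in control and 5 were called lower (7.25%) and 1 higher (1.45%) in the knockout. The shares called lower were near those of all genes. Their medians were -0.22 and -0.12, with 79.7% below 0 in control and 65.2% in the knockout, beside 76.3% and 86.8% of the members. Of 13 cytosolic ribosomal proteins none was called in either. Their medians were -0.15 and -0.13, with 92.3% and 84.6% below 0. The fall in control was thus not particular to the members. In overexpression only Ppargc1b was called among all these genes.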

How the data were processed

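Gene expression was measured in 18 mouse liver libraries with the Ion AmpliSeq mouse transcriptome panel, per the labels' protocols. The authors deposited CPM values in 1 table and log2(RPM + 1) values in a file per library, made with the program ampliSeqRNA, per the file headers; both hold the same data to within 2.0e-06. The aligner and the build of the genome are not stated by the labels or headers. Whole reads were recovered from the CPM steps for 100% of values (tolerance 0.05 reads), with totals of 4680152 to 5806228 per library.

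Groups came from the labels. The main test was limma 3.58.1 in R 4.3.3 (lmFit, eBayes with trend, two-sided) on log2(CPM + 1), with a pseudocount of 1, a mean for each of 6 groups, genes at 1 CPM or more in at least 3 libraries, and Benjamini-Hochberg adjustment over all 11720 genes; calls had an adjusted p under 0.05. Log2 changes understate low genes. Alternatives were edgeR 4.0.16 and DESeq2 1.42.0 on the recovered reads, TMM and quantile scaling, other pseudocounts and filters, blocks for replicate number and barcode range, a sex chromosome term, groups compared alone and leaving out each library. In simulated data for ethanol in control (11547 genes), 31% of genes changed 2-fold and 97% of those changed 4-fold were called by limma.

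The members and gene lists were chosen with earlier results of these data known. Named genes were the called members (up to 10), or the 3 with the smallest p, the highest member of each complex, the Sdh genes, tissue isoforms, and up to 2 called genes of each other list; Uqcrc2, Cyc1, Ndufb6, Ndufs4, Uqcrh, Cox5a, Ndufa4l2, Atp5d and those named for the sex chromosome pattern were chosen after their values were seen. Promoter sequences came from RefSeq (GRCm38.p6).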

Additional observations from a re-analysis of the deposited data

How the results depend on the processing

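With 3 libraries a group, members without a call may still have changed. The 31% called at 2-fold came from a set of 11547 genes, and the share for the members alone was not tested. The 69 members at 10 CPM or more had a median within-group standard deviation of 0.17 (log2). It was 0.28 for all 6999 genes at that level. For ethanol in control the count of 3 members called was 0 with TMM and edgeR and 1 with groups compared alone. The sex chromosome term, and leaving out the 2 pair-fed controls with Xist (an alternative chosen after seeing the data), both rest on pair-fed control replicate 1. Only sizes are read from them. In all these settings the 3 changes stayed between -0.61 and -0.93. With quantile scaling and with DESeq2 the count stayed at 3. The median of -0.20 was -0.11 with TMM, -0.14 with quantile scaling, -0.11 with edgeR and -0.12 with DESeq2. For ethanol in the knockout the 10 calls became 3 with TMM, 4 with edgeR, 3 with groups compared alone and 0 with the sex chromosome term, and the median of -0.27 became -0.20 with TMM, -0.20 with quantile scaling and -0.21 with edgeR. The calls there were 7 with quantile scaling and 11 with DESeq2. For ethanol in overexpression the count of 0 was 1 with the 10 CPM filter, and the median of -0.09 was -0.0044 with TMM, -0.033 with quantile scaling, -0.0072 with edgeR and -0.017 with DESeq2. Between ethanol-fed knockout and control the median was -0.15 with TMM, -0.16 with edgeR and -0.16 with DESeq2, which also called 1 member, and the knockout interaction median was -0.14 with DESeq2. The causes were not tested. Leaving out 1 library at a time gave 0 to 2 calls and medians of -0.24 to -0.16 for ethanol in control, with 0 calls without pair-fed replicate 2 or ethanol-fed replicate 2. It gave 2 to 5 calls and medians of -0.32 to -0.22 in the knockout, where each of the 6 libraries moved the count, and 0 to 1 call and medians of -0.10 to -0.07 in overexpression. Between pair-fed knockout and control the median ran from -0.043 to 0.046, below 0 without knockout replicate 1 or 3 or control replicate 3 (and, at -0.0087 and -0.0096, with TMM and edgeR). Between ethanol-fed knockout and control it ran from -0.13 to -0.056 (the latter without knockout replicate 1), between pair-fed overexpression and control from -0.13 to -0.051 (the latter without control replicate 2), between ethanol-fed overexpression and control from -0.058 to 0.031, for the knockout interaction from -0.13 to -0.044 and for the overexpression interaction from 0.047 (without ethanol-fed control replicate 1) to 0.15 (without ethanol-fed overexpression replicate 3). Between libraries with the same replicate number, the deviations from the group means had correlations of -0.27 to 0.28. With 3 libraries a group these values cannot decide whether the numbers pair the libraries, and the labels do not say. With the replicate number as a block the counts of members called were 3, 10 and 0 in the 3 ethanol comparisons.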
